A study of Homo sapiens with 31 samples.

Results

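Readers of N6-methyladenosine (m6A) are proteins that bind mRNA carrying a methyl group on the adenosine base. The 10 genes described here were chosen by name as the best-known readers: the YTH-domain genes YTHDF1, YTHDF2, YTHDF3, YTHDC1 and YTHDC2, the IGF2 mRNA-binding genes IGF2BP1, IGF2BP2 and IGF2BP3, and the nuclear ribonucleoproteins HNRNPA2B1 and HNRNPC. All 10 were listed among the 57992 genes of the steady-state tables and the 43682 genes of the actinomycin D tables, and all 10 passed the filter on low counts, which kept 17240 and 17715 genes.

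The labels of all libraries name PANC-1, a much-used line of human pancreatic carcinoma cells, and the study asked what loss of KHSRP, an RNA-binding protein that promotes decay of AU-rich mRNAs, does to gene expression and to mRNA lifetime. Steady-state polyA RNA was sequenced from 3 libraries of KHSRP knockout cells (KO) and 3 libraries labelled NC, whose genotype label is WT. A second set of 20 libraries came from cells given actinomycin D, a blocker of transcription, with 2 libraries per label at each of 0, 2, 4, 6 and 8 h. The labels do not say whether replicates were separate cultures or how many knockout clones were used, so p-values measure the spread between libraries, which may be technical, and 5 crosslinking samples were not analysed here.

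YTHDF1, YTHDF2 and YTHDF3 work in the cytoplasm, where YTHDF2 is best known for bringing the CCR4-NOT deadenylase to methylated mRNA and YTHDF1 for promoting translation. YTHDC1 acts in the nucleus on splicing and export, and YTHDC2 is an RNA helicase. The IGF2BP proteins bind through KH domains and are known for stabilising their target mRNAs, whereas HNRNPA2B1 and HNRNPC are abundant nuclear proteins, and HNRNPC binds U-rich stretches that a nearby m6A makes accessible.

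The genes lie at these places in hg19, the build of the deposited tables: YTHDF1 (ENSG00000149658) at chr20:61826781-61847483, YTHDF2 (ENSG00000198492) at chr1:29063136-29096287, YTHDC1 (ENSG00000083896) at chr4:69176105-69215808 and YTHDC2 (ENSG00000047188) at chr5:112849391-112930981. IGF2BP1 (ENSG00000159217) lies at chr17:47074747-47133507, IGF2BP2 (ENSG00000073792) at chr3:185360918-185542830 and IGF2BP3 (ENSG00000136231) at chr7:23349828-23510110. HNRNPA2B1 (ENSG00000122566) lies on the same chromosome as IGF2BP3, at chr7:26229547-26240366, and HNRNPC (ENSG00000092199) at chr14:21677306-21737601. YTHDF3 is ENSG00000185728.

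Depth ranged from 33706181 to 43278138 counts in the steady-state libraries and from 19177934 to 25768060 in the actinomycin D libraries. Levels in CPM are counts scaled to library size after TMM normalisation, which sets libraries to a shared typical gene. KHSRP was at 10.6, 9.89 and 9.49 CPM in the steady-state KO libraries and at 64.4, 65.7 and 64.9 CPM in NC. In the actinomycin D set it was at 134 to 156 CPM in KO and 375 to 460 CPM in NC, so KO libraries were lower in both sets. Other features separated the actinomycin D labels as well. CDKN2A, a gene PANC-1 is known to have lost, was at 0 in all 10 KO libraries and at 125 to 247 CPM in all 10 NC libraries, against 0 to 0.172 CPM in the steady-state set. The NC libraries of the actinomycin D set therefore go against the cell line named on their label, and the comparisons below are between libraries labelled KO and libraries labelled NC. The 5 ductal epithelial markers summed to 3812 to 6457 CPM in KO and 2923 to 4562 CPM in NC there, with 5 and 4 of them reaching 1 CPM. Single ductal markers went opposite ways: KRT19 was at 372 to 415 CPM in KO and 0 to 0.672 CPM in NC, and EPCAM at 4.70 to 9.85 and 0.224 to 1.16 CPM, whereas KRT7 was at 8.61 to 19.1 CPM in KO and 541 to 961 CPM in NC. Across the steady-state KO and NC libraries KRT19 was at 301 to 354 CPM and KRT7 at 3.43 to 5.39 CPM. The 4 immune markers summed to 113 to 249 CPM in KO and 10.04 to 14.4 CPM in NC, with PTPRC at 0 in KO and CD3E at 0 in NC; in the steady-state set they summed to 93.0 to 118 and 64.3 to 67.4 CPM, with CD3E at 0 in NC. The endothelial marker KDR was at 7.17 to 10.7 CPM in KO and 0 in all 10 NC libraries of the actinomycin D set, and the fibroblast marker COL1A1 at 24.6 to 51.5 and 6.64 to 10.9 CPM. Other tested markers of these types had negative log2 changes, KO minus NC, not all of which passed (edgeR, adjusted p under 0.05). Endothelial CDH5 was at -8.83 at 0 h and -7.27 over all times, both passing. Endothelial VWF was at -0.72 at 0 h, which did not pass, and at -2.41 over all times, which did. Fibroblast DCN was at -6.25 at 0 h, which passed, and at -3.74 over all times (SE 11120), which did not. Only 1 of the 4 endothelial and 1 of the 4 fibroblast markers reached 1 CPM in either label there. The part of these differences in the results below was not tested.

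Of the 10 genes, 8 have an entry in the RefSeq promoter table (GRCh38.p14), which gave 10 windows of 250 bases directly upstream of an annotated start. YTHDF3 and IGF2BP1 are named only. Windows are shown for YTHDF1 and YTHDF2, whose mRNA levels moved together across the labelled times, and for IGF2BP2 and IGF2BP3, the only members whose actinomycin D libraries did not overlap between labels. Capitals mark matches to the E-box CACGTG and to the GC box GGGCGG or its reverse complement CCGCCC, searched on both strands with overlapping matches counted. Across all 35116 windows of the table, 6.34% held the E-box and 42.6% a GC box.
YTHDF1, chr20:63216132-63216381, minus strand: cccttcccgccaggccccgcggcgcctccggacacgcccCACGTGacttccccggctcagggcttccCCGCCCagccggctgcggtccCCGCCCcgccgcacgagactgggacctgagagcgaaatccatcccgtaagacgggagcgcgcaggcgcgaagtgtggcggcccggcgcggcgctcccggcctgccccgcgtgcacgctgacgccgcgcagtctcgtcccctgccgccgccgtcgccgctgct
YTHDF2, chr1:28736374-28736623, plus strand: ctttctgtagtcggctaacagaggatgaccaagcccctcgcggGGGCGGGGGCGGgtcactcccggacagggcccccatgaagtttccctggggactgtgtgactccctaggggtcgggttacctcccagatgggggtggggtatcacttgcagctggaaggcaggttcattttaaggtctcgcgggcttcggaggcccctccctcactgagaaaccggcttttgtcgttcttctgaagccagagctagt
IGF2BP2, chr3:185825043-185825292, minus strand: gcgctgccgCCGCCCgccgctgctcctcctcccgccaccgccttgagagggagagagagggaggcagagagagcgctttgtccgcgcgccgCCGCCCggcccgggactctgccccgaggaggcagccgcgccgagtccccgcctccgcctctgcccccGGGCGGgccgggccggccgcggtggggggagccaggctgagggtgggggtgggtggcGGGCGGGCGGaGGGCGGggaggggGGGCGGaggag
IGF2BP3, chr7:23470492-23470741, minus strand: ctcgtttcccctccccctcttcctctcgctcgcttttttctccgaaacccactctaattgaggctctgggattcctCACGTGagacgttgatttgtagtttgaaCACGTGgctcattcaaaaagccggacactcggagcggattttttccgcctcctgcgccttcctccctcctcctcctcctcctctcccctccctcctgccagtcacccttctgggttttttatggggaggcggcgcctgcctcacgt

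The YTHDF1 window held 1 E-box and 2 GC boxes at 77.6% G+C, and the YTHDF2 window shown 2 adjoining GC boxes and no E-box at 60.8% G+C. A second YTHDF2 window, at chr1:28736690-28736939, held 4 GC boxes at 72.8% G+C. The IGF2BP2 window shown was the most GC-rich of the 10, at 81.6%, with 7 GC boxes, whereas a second IGF2BP2 window, at chr3:185821143-185821392, was the least GC-rich, at 32.8%, with no GC box. The IGF2BP3 window held 2 E-boxes and no GC box at 56.8% G+C. The CRE motif TGACGTCA, present in 1.65% of all windows, was matched once each in YTHDC1 and YTHDC2, and the AP-1 motif TGACTCA, or TGAGTCA on the other strand, in 4.2% of all windows and in none of the 10. These matches describe the letters of the windows and are not evidence of binding.

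Levels of different genes were compared per length. In the steady-state NC libraries HNRNPC was the most abundant reader mRNA, at 41.3 ± 1.34 TPM, a length-corrected share of transcripts (SD, n = 3), followed by HNRNPA2B1 at 15.3 ± 1.43 TPM and YTHDF2 at 10.4 ± 0.290 TPM. IGF2BP3 at 8.51 ± 0.336 TPM and YTHDF1 at 8.01 ± 0.656 TPM came next, and these 2 neighbours were the only pair in the NC order whose libraries overlapped. YTHDF3 (6.21 TPM), IGF2BP2 (4.75 TPM), YTHDC2 (3.80 TPM), YTHDC1 (3.05 TPM) and IGF2BP1 (2.11 TPM) followed. In KO libraries HNRNPC remained the highest at 45.9 ± 2.13 TPM, YTHDF2 and YTHDF1 were next at 12.7 ± 1.17 and 10.1 ± 0.576 TPM, and YTHDC2 was the lowest at 2.31 ± 0.545 TPM, in a range that overlapped those of IGF2BP1, YTHDC1 and YTHDF3.

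The order per length was taken separately in the actinomycin D set. HNRNPA2B1 led at 232 ± 31.5 RPKM, reads scaled to gene length and library size (SD over 10 NC libraries), and 221 ± 34.5 RPKM over 10 KO libraries, ahead of HNRNPC at 104 ± 11.9 and 112 ± 17.3 RPKM. IGF2BP3 was the third in both labels, at 12.1 ± 2.78 RPKM in NC and 21.2 ± 0.987 RPKM in KO. IGF2BP2 was the lowest of the 10 in NC at 2.52 ± 0.442 RPKM and the fourth in KO at 15.5 ± 0.460 RPKM. YTHDF3 was at 8.21 RPKM in NC and 6.61 in KO, YTHDF1 at 6.48 and 5.40, YTHDF2 at 4.69 and 7.16, YTHDC2 at 4.38 and 3.81, and IGF2BP1 at 3.36 and 4.62. Over the NC libraries HNRNPA2B1, HNRNPC and IGF2BP3 did not overlap each other, whereas IGF2BP3 (9.68 to 17.1 RPKM) overlapped YTHDF3 (5.11 to 14.1 RPKM). The 2 sets were counted separately, so a level in one cannot be set against a level in the other. For YTHDC1 the deposited length of 12514 bases is 2.0 times the 6257 bases of its exons on chromosome 4, and its RPKM, 4.74 ± 1.19 in NC and 4.34 ± 1.28 in KO, is given per the latter.

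The steady-state comparison asked which reader mRNAs differ between KHSRP KO and NC cells. Of the 10, 6 fell in KO and none rose: YTHDF3, HNRNPA2B1, YTHDC2, YTHDC1, IGF2BP3 and HNRNPC. Across all genes tested 26.3% fell, 24.4% rose and 50.6% did either by the same rule (edgeR quasi-likelihood test, Benjamini-Hochberg adjusted p under 0.05). The median log2 change of the 10 was -0.35, against 0.02 over all genes tested. By this test 2 of the 10 lay above the median gene. With length-adjusted offsets 3 did, and by limma on log2(TPM + 1) 5 did. In CPM the libraries of KO and NC did not overlap for the same 6 genes, with KO below, where 29.6% of all genes separated in that direction, 30.4% in the other and 60.0% in either. TPM is scaled by gene length and was used without TMM normalisation. In TPM, KO lay below NC without overlap only for YTHDF3, YTHDC2 and HNRNPA2B1. It lay above NC for YTHDF1, YTHDF2, IGF2BP1 and HNRNPC. Of all genes, 12.9% separated in TPM with KO below, 42.5% with KO above and 55.4% in either direction. By limma on log2(TPM + 1) 3 members passed as lower and 1 as higher. Leaving out 1 library at a time gave 4 to 6 members lower by the count test, 6 of them without KO replicate 1, which differed from KO replicate 2 more than any other pair of replicates did (chi-square per degree of freedom 42.8). In bulk RNA, fewer cells expressing a gene and less RNA per cell cannot be told apart.

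Among the cytoplasmic YTHDF readers only YTHDF3 changed. YTHDF3 was at 36.9, 27.3 and 23.9 CPM in KO and at 76.3, 70.5 and 79.3 CPM in NC. Every KO library lay below every NC library, and the difference was 2.57-fold (log2 change -1.36, SE 0.14, adjusted p = 8.72e-05). YTHDF1 was at 71.5, 77.2 and 76.1 CPM in KO and 72.6, 76.7 and 64.8 CPM in NC, and the groups overlapped in CPM. Its log2 change of 0.07 did not pass (adjusted p = 0.525). It passed as higher with length-adjusted offsets, at 0.26 (adjusted p = 0.0402), and by limma on log2(TPM + 1), at 0.30 (adjusted p = 0.0388). YTHDF2, the reader tied to mRNA decay, was at 84.7, 85.2 and 81.2 CPM in KO and 82.4, 82.4 and 80.3 CPM in NC, with groups that overlapped in CPM and a log2 change of 0.03 (adjusted p = 0.706).

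The paralogs therefore took different shares of YTHDF mRNA. Per length, YTHDF3 made up 10.3% ± 1.71 (SD, n = 3) of the YTHDF sum in KO and 25.2% ± 1.62 in NC. YTHDF2 made up 49.99% ± 0.475 in KO and 42.3% ± 0.326 in NC, and YTHDF1 39.7% ± 1.92 and 32.5% ± 1.92. The summed level overlapped between labels, at 23.9 to 28.1 TPM in KO and 23.9 to 25.5 TPM in NC.

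The YTHDC genes were both lower in KO by the count test. YTHDC2, the helicase, was at 35.8, 24.1 and 28.9 CPM in KO and 65.3, 59.3 and 62.6 CPM in NC. All KO libraries lay below all NC libraries, a 2.11-fold difference (log2 change -1.08, SE 0.13, adjusted p = 0.00017). The change was smaller with length-adjusted offsets, at -0.66, and by limma on TPM, at -0.55, and passed in both. YTHDC1, the nuclear YTH reader, was at 19.8, 13.9 and 15.3 CPM in KO and 23.3, 21.2 and 24.7 CPM in NC, without overlap in CPM. Its log2 change was -0.50 (SE 0.13, adjusted p = 0.00989), but it did not pass by limma on TPM (log2 change -0.22, adjusted p = 0.299). In TPM its KO replicate 1, at 3.62, lay above all NC libraries, at 2.9 to 3.3.

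Of the nuclear ribonucleoproteins, HNRNPA2B1 fell most. It was at 54.2, 49.5 and 46.2 CPM in KO and 121, 108 and 131 CPM in NC, so the lowest NC library was well above the highest KO library. The fold was 2.40 (log2 change -1.26, SE 0.10, adjusted p = 2.66e-05). HNRNPC was at 163, 175 and 171 CPM in KO and 197, 186 and 206 CPM in NC. These groups did not overlap in CPM, but the difference was small, 1.16-fold (log2 change -0.21, SE 0.07, adjusted p = 0.0371). HNRNPC did not pass with length-adjusted offsets (adjusted p = 0.0528), with no filter on low counts (0.0753) or without KO replicate 3, NC replicate 1 or NC replicate 3 (0.101, 0.116 and 0.146), and by limma on TPM its direction turned, at 0.15 (adjusted p = 0.183).

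Among the IGF2BP genes only IGF2BP3 passed. IGF2BP3 was at 64.6, 41.1 and 44.8 CPM in KO and 68.4, 68.1 and 74.2 CPM in NC. The groups did not overlap in CPM, though in TPM KO replicate 1, at 11.2, lay above all NC libraries, at 8.16 to 8.83, and the log2 change was -0.49 (SE 0.15, adjusted p = 0.021). This call was lost when KO replicate 3 or NC replicate 1, 2 or 3 was left out (adjusted p = 0.0899, 0.0523, 0.0547 and 0.0788) and by limma on TPM (log2 change -0.16, adjusted p = 0.534).

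IGF2BP1 was at 42.4, 49.2 and 41.9 CPM in KO and 47.6, 46.5 and 51.4 CPM in NC. The groups overlapped in CPM and its log2 change of -0.12 did not pass (adjusted p = 0.274), but the direction turned to 0.45 with length-adjusted offsets (adjusted p = 0.0031) and to 0.16 by limma on TPM (adjusted p = 0.187). IGF2BP2 was at 34.8, 36.6 and 32.4 CPM in KO and 38.3, 34.4 and 39.4 CPM in NC. Its groups overlapped too, with a log2 change of -0.11 (adjusted p = 0.315) that became 0.02 and 0.15 by the same 2 alternatives, neither of which passed. Over all genes tested, limma on TPM called 6184 higher and 1830 lower, 77.2% of the calls being higher against 48.1% by the count test. Length-adjusted offsets called 5182 higher and 3820 lower. The median log2 change over all genes was 0.02 by the count test, 0.12 by limma on TPM and 0.10 with length-adjusted offsets. The part of gene length in these shifts was not tested.

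**Figure D1:**
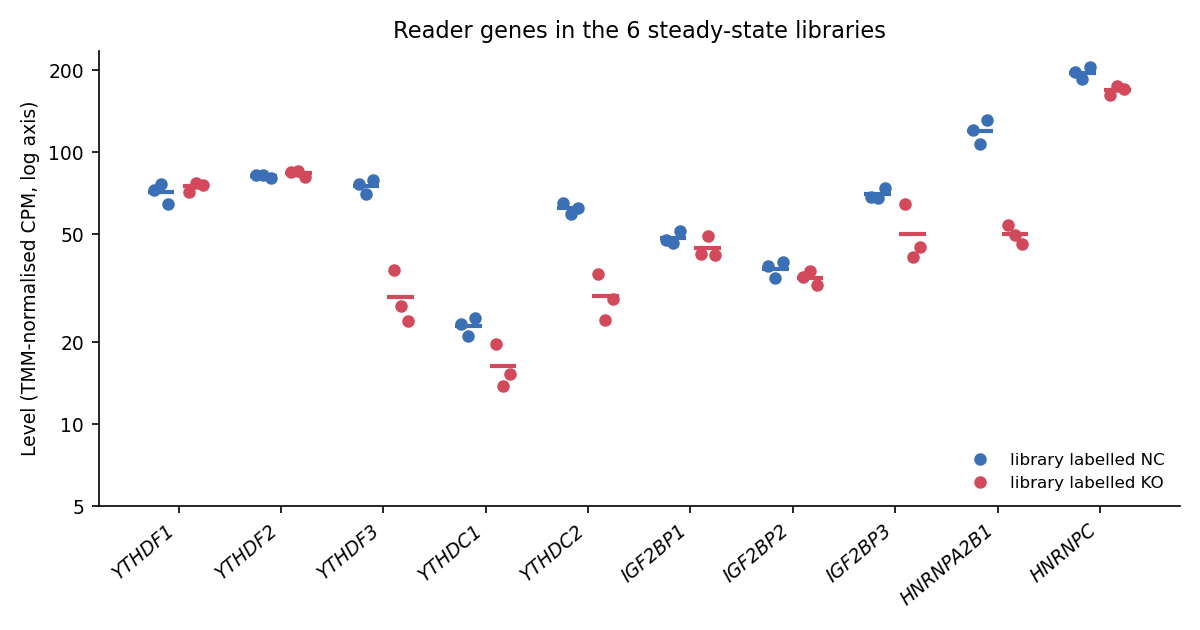
Steady-state level of each reader gene in TMM CPM (log axis), one dot per library and a bar at each group mean, for 3 KO and 3 NC libraries. In CPM the KO dots lie below all NC dots for YTHDF3, YTHDC1, YTHDC2, IGF2BP3, HNRNPA2B1 and HNRNPC, and the groups overlap for the other 4; in TPM HNRNPC, YTHDF1, YTHDF2 and IGF2BP1 lie above NC and YTHDC1 and IGF2BP3 overlap.

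In the actinomycin D set, libraries labelled KO and NC were first compared before any labelled treatment time had passed. The NC libraries of this set go against the cell line named on their label. These are therefore differences between labels, and the part of KHSRP loss in them was not tested. At 0 h IGF2BP2, YTHDF2, IGF2BP3 and IGF2BP1 were higher in KO and YTHDC2 and HNRNPA2B1 lower, 4 and 2 of the 10, where 35.5% of all genes were higher, 31.6% lower and 67.1% either (edgeR, fitted on all 20 libraries). The libraries of 6 members separated with KO above and of 3 with KO below, against 42.9% and 39.1% of all genes, or 82.0% in either direction. With time as a factor over all 20 libraries, 5 members were higher in KO and 5 lower, against 41.6% and 41.6% of all genes, or 83.1% in either direction. The libraries of only 2 members, IGF2BP2 and IGF2BP3, did not overlap over all times, in both cases with KO above, a separation seen in 19.4% of all genes with KO above, 18.7% with KO below and 38.2% in either direction.

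These directions depend on how libraries are scaled. Scaled to 77 ribosomal protein genes, or on the molecule scale the authors deposited, all 10 members were higher in KO at 0 h, and 9 were higher and none lower over all times. The median gene moved as well: its log2 change at 0 h was 0.06 on the TMM scale, 0.50 on the ribosomal protein scale and 0.88 on the molecule scale, and over all times -0.01, 0.37 and 0.40. Relative to the median gene, 6 members lay above it at 0 h on the TMM scale, 6 on the ribosomal protein scale and 7 on the molecule scale. Over all times these counts were 5, 5 and 6 of 10. Of the calls over all genes at 0 h, 52.9% were higher on the TMM scale, 71.4% on the ribosomal protein scale and 84.8% on the molecule scale. Over all times the TMM scale gave 7366 genes higher and 7361 lower, whereas 65.5% and 67.8% of the calls were higher on the other 2 scales.

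IGF2BP2 separated the labels most. In KO its 2 libraries were at 156.5 and 157 CPM at 0 h, 159 and 163 at 2 h, 143 and 146 at 4 h, 140.5 and 129 at 6 h, and 156 and 158 at 8 h. In NC they were at 21.0 and 18.2 CPM at 0 h, 29.2 and 28.7 at 2 h, 26.7 and 28.3 at 4 h, 25.2 and 22.4 at 6 h, and 23.8 and 23.5 at 8 h. The lowest KO library was far above the highest NC library at every time. The difference at 0 h was 7.99-fold (log2 change 2.998, SE 0.08, adjusted p = 2.51e-31) and over all times 6.15-fold (log2 change 2.62, SE 0.03, adjusted p = 2.11e-43). The log2 change at 0 h was 4.13 and 3.45 on the molecule and ribosomal protein scales.

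IGF2BP3, its paralog, was at 204 and 202 CPM at 0 h, 205 and 200.4 at 2 h, 186 and 192 at 4 h, 171 and 170.1 at 6 h, and 236 and 223 at 8 h in KO. In NC it was at 94.1 and 93.7 CPM at 0 h, 124 and 121 at 2 h, 148 and 157 at 4 h, 97.7 and 104 at 6 h, and 104 and 100.3 at 8 h. The labels came closest where NC was highest, at 4 h in NC, and did not overlap. The log2 change was 1.11 at 0 h (SE 0.05, adjusted p = 6.55e-22) and 0.81 over all times (SE 0.02, adjusted p = 1.83e-30). IGF2BP1 ranged from 81.2 to 96.0 CPM over the KO libraries and from 57.0 to 83.0 CPM over NC, overlapping only through 1 of the NC libraries at 4 h. Its log2 change was 0.54 at 0 h (SE 0.07, adjusted p = 1.39e-08) and 0.44 over all times (SE 0.03, adjusted p = 2.82e-16).

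The makeup of the IGF2BP family differed between the labels accordingly. Per length, IGF2BP2 was 37.6% ± 1.12 (SD, n = 10) of the family sum in KO and 14.1% ± 1.44 in NC. IGF2BP3 was 51.3% ± 1.94 in KO and 67.1% ± 1.82 in NC, and IGF2BP1 11.2% ± 1.34 and 18.8% ± 1.53. The family sum was 40.1 to 42.7 RPKM in KO and 14.6 to 24.5 RPKM in NC, without overlap. In the steady-state set IGF2BP2 was 35.1% ± 3.89 (n = 3) of the sum in KO and 30.9% ± 1.13 in NC, where the ranges of 30.6% to 37.6% and 29.9% to 32.1% overlapped, and the sums averaged 15.7 and 15.4 TPM.

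**Figure D2:**
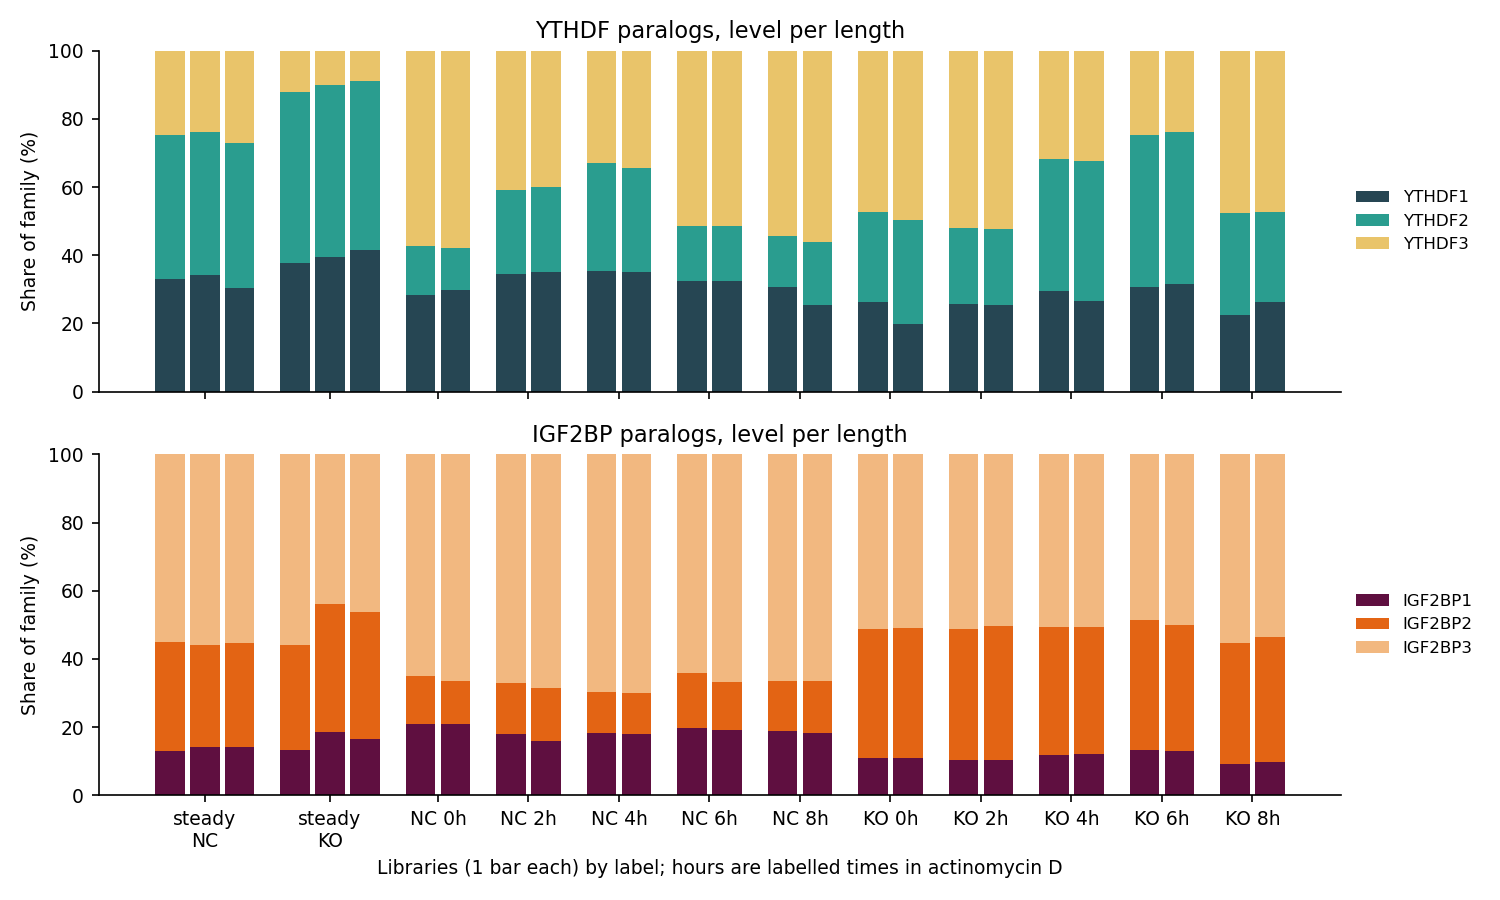
Share of each paralog in the summed per-length level of the YTHDF and IGF2BP families, in percent, one stacked bar per library (TPM in the steady-state set, RPKM in the actinomycin D set). IGF2BP2 takes 35.3% to 39.4% of its family in the 10 actinomycin D KO libraries and 12.1% to 16.0% in the 10 NC libraries.

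YTHDF2 was the other reader with a large difference at 0 h. It was at 20.2 and 22.1 CPM at 0 h, 15.7 and 16.2 at 2 h, 58.0 and 60.1 at 4 h, 106 and 98.4 at 6 h, and 20.3 and 17.7 at 8 h in KO. In NC it was at 9.55 and 7.98 CPM at 0 h, 33.7 and 34.9 at 2 h, 82.3 and 78.0 at 4 h, 14.9 and 14.9 at 6 h, and 9.49 and 12.02 at 8 h. KO was above NC at 0, 6 and 8 h and below it at 2 and 4 h, with no overlap at any time. The log2 change was 1.27 at 0 h (SE 0.12, adjusted p = 4.85e-12) and 0.67 over all times (SE 0.05, adjusted p = 9.60e-16). Over the libraries labelled 0, 2 and 8 h alone it was 0.31 (adjusted p = 0.00165), an alternative chosen after seeing the data.

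YTHDF1 had a like time course. In KO it was at 21.99 and 15.9 CPM at 0 h, 19.7 and 20.2 at 2 h, 48.8 and 42.4 at 4 h, 79.8 and 76.3 at 6 h, and 16.7 and 19.2 at 8 h. In NC it was at 21.0 and 20.9 CPM at 0 h, 51.6 and 53.4 at 2 h, 99.999 and 99.04 at 4 h, 32.3 and 32.9 at 6 h, and 21.5 and 18.0 at 8 h. The labels overlapped at 0 and 8 h, and between them KO was lower at 2 and 4 h and higher at 6 h. Its log2 change was -0.14 at 0 h (adjusted p = 0.316), which passed as lower without KO replicate 1 of 0 h (-0.39, adjusted p = 0.0135). Over all times it was -0.31 (SE 0.05, adjusted p = 4.37e-07), -0.58 over the libraries labelled 0, 2 and 8 h alone, and 0.09 and 0.08, without passing, on the molecule and ribosomal protein scales.

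YTHDF3 ranged from 58.9 to 109 CPM in KO and from 64.8 to 165 CPM in NC. At 0 h its libraries were at 67.1 and 67.6 CPM in KO and 72.0 and 69.2 CPM in NC, and the log2 change of -0.07 did not pass (adjusted p = 0.382). Over all times it was -0.29 (SE 0.03, adjusted p = 6.36e-12), turning to 0.12 and 0.10 on the molecule and ribosomal protein scales. YTHDC1 ranged from 40.4 to 75.5 CPM in KO and from 46.3 to 89.1 CPM in NC. Its log2 change was 0.10 at 0 h (adjusted p = 0.266) and -0.16 over all times (SE 0.04, adjusted p = 6.38e-05), turning to 0.24 and 0.22 on those scales. YTHDC2 ranged from 44.8 to 60.1 CPM in KO and from 53.7 to 69.3 CPM in NC. It was lower by 0.25 at 0 h (log2 change -0.25, SE 0.08, adjusted p = 0.00815), a call lost without KO replicate 1 or NC replicate 1 of 0 h (adjusted p = 0.186 and 0.0961). Over all times its log2 change was -0.22 (SE 0.04, adjusted p = 8.55e-07), turning to 0.19 and 0.16 on those scales.

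HNRNPA2B1 was at 1999 and 1873 CPM at 0 h in KO and 2029.6 and 2055 CPM in NC. The groups did not overlap, but the log2 change was only -0.08 (SE 0.03, adjusted p = 0.0347), and the call was lost without KO replicate 2, NC replicate 1 or NC replicate 2 of 0 h (adjusted p = 0.525, 0.0698 and 0.149), without NC replicate 2 of 6 h (0.0509) and when only genes with at least 1 CPM in every library were kept (0.0899). Over all times it was -0.09 (SE 0.01, adjusted p = 2.22e-07), turning to 0.40 and 0.30 on the molecule and ribosomal protein scales and to 0.04 (adjusted p = 0.0743) over the libraries labelled 0, 2 and 8 h. HNRNPC was at 861 and 858 CPM at 0 h in KO and 815 and 817 CPM in NC. Its log2 change of 0.08 did not pass (adjusted p = 0.0586), but passed without either NC library of 4 h (0.0494 and 0.0487), with the filter of 1 CPM (0.0155) and on both other scales. Over all times it was 0.08 (SE 0.02, adjusted p = 1.55e-05), and 0.21 over the libraries labelled 0, 2 and 8 h.

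**Figure D3:**
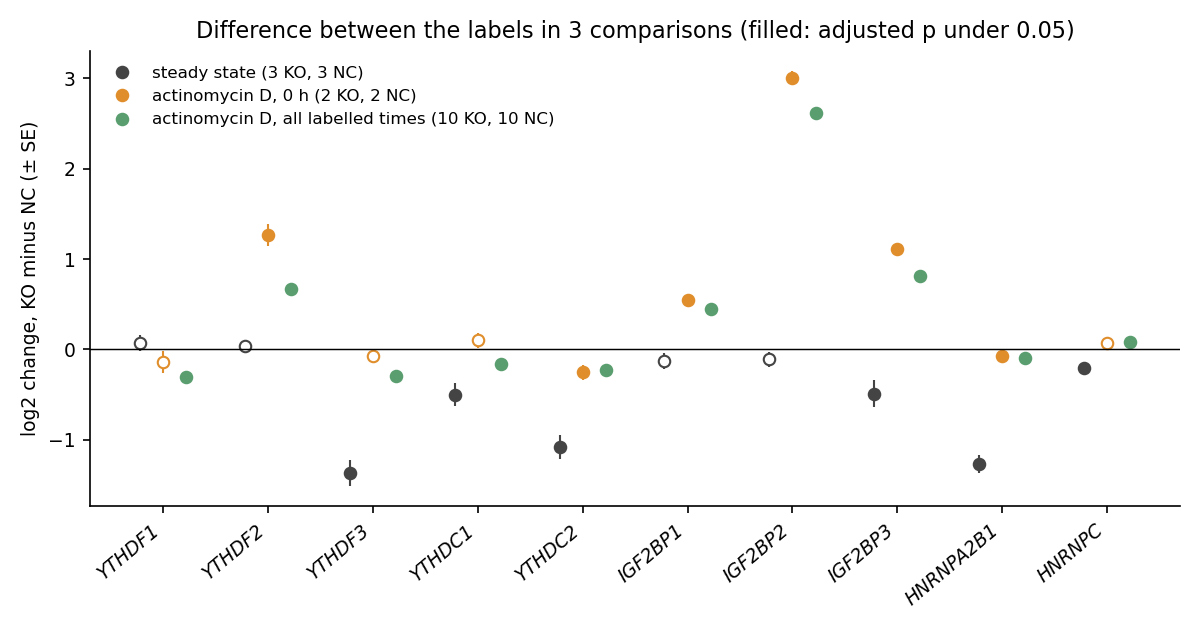
Log2 change of each reader gene, KO minus NC, with its standard error, at steady state, at 0 h of actinomycin D and over all actinomycin D times (edgeR on TMM-scaled counts); filled symbols have an adjusted p under 0.05. IGF2BP2 stands at 2.998 and 2.62 in the actinomycin D comparisons and at -0.11 at steady state. Its steady-state direction turned, without passing, with length-adjusted offsets and by limma on TPM. The directions of YTHDF1, YTHDF3, YTHDC1, YTHDC2 and HNRNPA2B1 over all times turn on the other 2 scales.

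**Figure D4:**
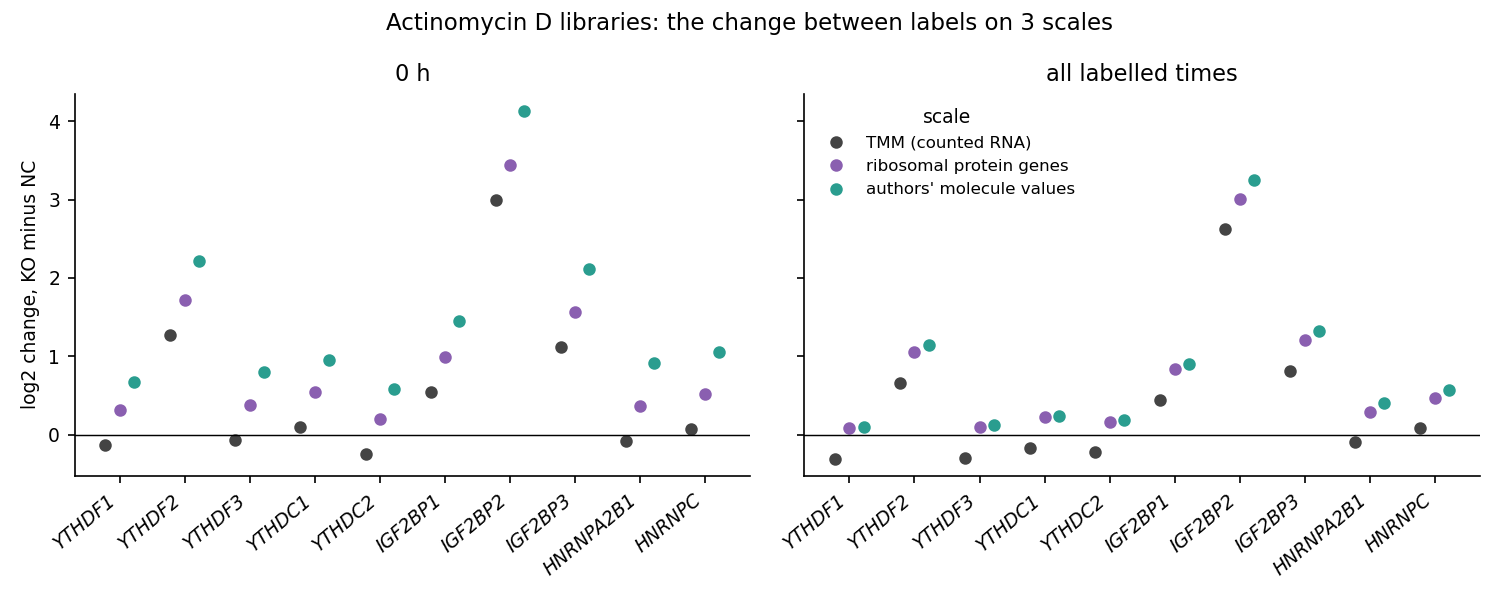
Log2 change of each reader gene, KO minus NC, at 0 h and over all actinomycin D times on 3 scales: TMM, ribosomal protein genes and the deposited molecule values. All 10 are above 0 at 0 h on the latter 2 scales, where the median gene is at 0.50 and 0.88.

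The labelled times were compared within each label. Levels are relative to the other transcripts of a library, so a higher level is not by itself more RNA of that gene. All 10 members differed among the 5 times in NC and 8 in KO, where 54.7% and 55.9% of all genes did (edgeR F test, adjusted p under 0.05). IGF2BP1 and YTHDC2 did not pass in KO (adjusted p = 0.107 and 0.146). The 2 members with at least 4-fold between the highest and lowest time were YTHDF2, at 9.13-fold in NC and 6.43-fold in KO, and YTHDF1, at 5.02-fold and 4.33-fold. These folds rest largely on the NC libraries of 4 h and the KO libraries of 6 h, the groups where many genes had their highest or lowest level, and no value here checks the time labels independently. Without those groups the log2 range of YTHDF2 went from 3.19 to 1.90 in NC and from 2.69 to 1.98 in KO, and that of YTHDF1 from 2.33 to 1.32 and from 2.12 to 1.42, each still passing. With all times, a change of at least 4-fold was called in 8.36% of all genes in NC and 7.31% in KO. The other 8 ranged from 1.21-fold (YTHDC2) to 2.45-fold (YTHDF3) in NC and from 1.14-fold (IGF2BP1) to 1.81-fold (HNRNPC) in KO.

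The highest level of a member was at 4 h in NC for 6 of 10 and at 6 h in KO for 5 of 10, where 37.0% and 30.3% of all genes were highest. YTHDF1, YTHDF2, YTHDF3, YTHDC1 and IGF2BP1 did so in both labels, and IGF2BP3 in NC. The lowest level was at 4 h in NC for 3 members and at 6 h in KO for 4, where 34.7% and 39.7% of all genes were lowest. HNRNPA2B1 and HNRNPC were among them in both labels and had their highest level at 8 h. HNRNPC was at 861 and 858 CPM at 0 h, 932 and 931 at 2 h, 653 and 689.7 at 4 h, 548 and 526 at 6 h, and 986 and 958 at 8 h in KO. In NC it was at 815 and 817 CPM at 0 h, 682 and 696 at 2 h, 553 and 588 at 4 h, 771 and 794 at 6 h, and 853 and 836 at 8 h. Its low point thus fell at the times when YTHDF1 and YTHDF2 were highest in each label.

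**Figure D5:**
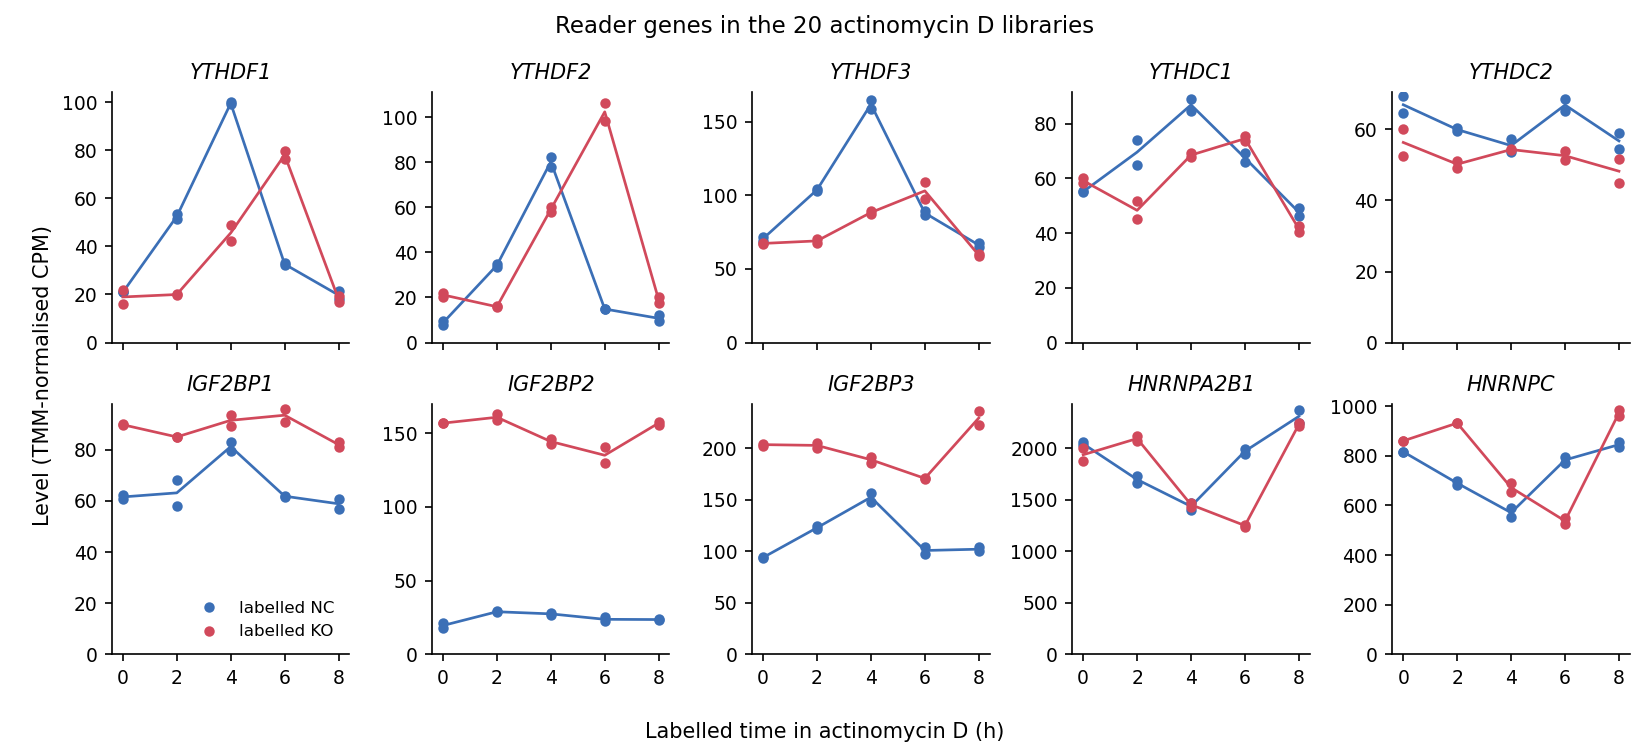
Level of each reader gene in TMM CPM against labelled time under actinomycin D in hours, with both libraries of each label as dots and lines through their means. YTHDF1 and YTHDF2 are highest at 4 h in NC and 6 h in KO, and HNRNPA2B1 and HNRNPC are lowest there.

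With the NC libraries of 4 h and the KO libraries of 6 h left out, IGF2BP1 no longer differed among times in NC (adjusted p = 0.989) and IGF2BP2 no longer in KO (0.827), whereas IGF2BP1 and YTHDC2 passed in KO (0.0261 and 0.0242). On the ribosomal protein scale HNRNPA2B1 did not pass in either label (adjusted p = 0.0743 in NC and 0.371 in KO) and HNRNPC did not pass in KO (0.773). IGF2BP2 also failed to pass in KO without KO replicate 2 of 6 h (0.0931) and with no filter on low counts (0.83).

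No member had a slope over the labelled times that passed on the count scale. A slope on this scale is relative to the other transcripts counted, so it is not a decay rate. The edgeR slope test called no gene in NC, in KO or for the difference between them (0.0% of 17715 in each); 403, 635 and 529 genes had an unadjusted p under 0.05, none of them a member, and DESeq2 called 2, 10 and 6 genes. The largest member slope was that of YTHDF2 in KO, at 0.21 log2 units per hour (SE 0.15), and its slope in NC was -0.08 (SE 0.19). On the deposited molecule scale 6 members passed in NC and 6 in KO, with 7868 and 8737 of 13988 genes, and none for the difference. Differences between the labels in the shape of the time course were tested only as this difference of slopes.

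The YTHDF family changed in makeup over the times. Per length, YTHDF2 was 13.3% ± 1.24 (SD, n = 2) of the YTHDF sum at 0 h and 31.0% ± 1.01 at 4 h in NC, and 28.3% ± 2.72 at 0 h and 44.6% ± 0.0495 at 6 h in KO. YTHDF3 went the other way, from 57.6% ± 0.361 to 33.7% ± 1.07 in NC and from 48.5% ± 1.79 to 24.2% ± 0.615 in KO. The sum itself was 9.95 RPKM at 0 h and 41.3 RPKM at 4 h in NC, and 11.4 RPKM at 0 h and 39.8 RPKM at 6 h in KO.

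Correlations of log2 CPM across the 10 libraries of a label describe these time courses; the libraries share times, so the points are not independent. YTHDF1 correlated with YTHDF2 at 0.98 in NC and 0.967 in KO and with YTHDF3 at 0.987 and 0.96. HNRNPA2B1 and HNRNPC correlated at 0.979 and 0.991 with each other, and HNRNPC with YTHDF1 at -0.975 in both. The sign for IGF2BP3 differed between labels: with YTHDF1 it correlated at 0.95 in NC and -0.895 in KO, and with HNRNPC at -0.946 and 0.929. IGF2BP2 and YTHDF1 correlated at 0.746 in NC and -0.926 in KO. These differences in sign were not tested.

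Across all 20 libraries and 9742 genes with a mean of at least 10 CPM, the genes whose log2 CPM was most like each member were listed as a description. The 20 libraries pool both labels, so these correlations include the difference between labels. IGF2BP1 and IGF2BP2, for instance, correlated at 0.867 over the 20 libraries, at 0.458 in NC and at -0.639 in KO. YTHDF2 was most like CSTF1 (Pearson r = 0.987), RNF139 (0.987) and VEZF1 (0.986), and YTHDF1 most like NUP153 (0.978), BCAR3 (0.977) and RLIM (0.977). YTHDF3 was most like WDR33 (0.978) and YTHDC1 most like WDR75 (0.969). IGF2BP2 was most like PPP3CA (0.996), ICAM1 (0.995) and USP12 (0.995). IGF2BP3 was most like MAPK6 (0.981), HNRNPA2B1 most like RPN1 (0.993) and HNRNPC most like HDLBP (0.989). YTHDC2 had no close match, the highest being LDHA at 0.855.

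Other genes of the m6A pathway were described from 3 lists of 11 genes, all of which were tested, on the TMM scale. Over all genes tested, 24.4% rose, 26.3% fell and 50.6% did either at steady state. Of the writers and erasers, which add and remove m6A, 3 rose and 6 fell in steady-state KO, with a median log2 change of -0.39. ZC3H13 (-1.85), METTL14 (-0.91) and VIRMA (-0.66), all parts of the methyltransferase complex, changed most. Of other proposed readers 4 rose and 5 fell, with a median of -0.23, led by FMR1 (-1.81), EIF3A (-1.09) and LRPPRC (-0.98). Of proteins known to act with readers, 2 rose and 7 fell, with a median of -0.49, led by the exonuclease XRN1 (-1.46), the CCR4-NOT scaffold CNOT1 (-0.99) and MATR3 (-0.80).

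At 0 h of actinomycin D 35.5% of all genes were higher and 31.6% lower. There, 5 writers and erasers were higher in KO and 1 lower (median log2 change 0.28), led by WTAP (1.23), the demethylase ALKBH5 (1.05) and ZC3H13 (0.88). Other proposed readers were split, 4 higher and 4 lower (median 0.02), with SND1 at -1.60, FMR1 at 1.28 and FXR1 at 0.81. Partner proteins were mostly lower, 8 against 2 higher (median -0.58), with RIDA at -1.38, UPF1 at -0.92 and DHX9 at -0.79. Over all times the counts higher and lower were 5 and 4, 4 and 5, and 2 and 9 for the 3 lists, where 41.6% of all genes were higher and 41.6% lower. ZC3H13 and FMR1 were thus lower in KO at steady state and higher in KO at 0 h. Of the other proposed readers and partners named here, EIF3A, LRPPRC and FXR1 also passed in these directions. SND1 and UPF1 passed in the reverse directions, higher at steady state and lower at 0 h. The difference between the sets was not tested.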

How the data were processed

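TRIzol was used to isolate RNA, and polyA libraries were made with the Hieff NGS Ultima Dual-mode kit, per the labels' protocols. The submitters' processing notes name STAR, RSEM, Bowtie2, deepTools and hg19, with no version or role; the annotation and strand setting were not stated. The authors deposited expected counts and TPM for the steady-state set, per the file headers; 10.25% of the expected counts were not whole and were rounded, and 45 pseudoautosomal copies were added to their partners. For the actinomycin D set the authors deposited counts, RPKM (counts scaled by gene length and library size) and a molecule signal, per the file headers. The log2 molecule values deposited by the authors form an exact line of their log2 RPKM values in each library, and how the lines were set was not stated. In all 20 of these tables the 37 mitochondrial genes had 0 counts.

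The count test was edgeR 4.0.16 under R 4.3.3 (filterByExpr, TMM, robust quasi-likelihood fit, Benjamini-Hochberg over all genes tested, threshold 0.05), on the 6 steady-state libraries and, separately, on all 20 actinomycin D libraries with a group for each label and time. The code was tested on simulated data. Alternatives were DESeq2 1.42.0, its size factors, 2 other filters (none, or at least 1 CPM in every library) and a replicate block. Others were length-adjusted offsets, which remove each library's trend of level with gene length, and limma 3.58.1 on log2(TPM + 1). Scaling to 77 ribosomal protein genes, limma on the molecule scale and leaving out each library were also run. Chi-square per degree of freedom between replicates was 3.81 to 42.8, so no library was a copy of a replicate in its own group. Libraries of different groups were not compared in this way. The genes named are the 10 members, KHSRP, the 3 most changed of each list among those that passed, and the most similar genes. The members and lists were chosen with earlier results of these data known.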

Additional observations from a re-analysis of the deposited data

Results flagged for a closer look

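On the CPM scale IGF2BP3 moved in opposite directions in the 2 sets. Its log2 change, KO minus NC, was -0.488 at steady state, where all 3 KO libraries lay below all 3 NC libraries in CPM, and 0.814 over all actinomycin D times, where all 10 KO libraries lay above all 10 NC libraries. In TPM the steady-state groups overlapped, KO replicate 1 being at 11.2 and the NC libraries at 8.16 to 8.83. The difference between the sets was not tested, since they were counted separately, and the steady-state call was lost by limma on TPM and when any of 4 libraries was left out. The NC libraries also differed between the sets. CDKN2A was at 125.5 to 247 CPM in the actinomycin D NC libraries and at 0 in the steady-state NC libraries. The part of this in the opposite directions was not tested.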

How the results depend on the processing

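At steady state the count of members lower in KO went from 6 to 3 by limma on TPM, and members higher from 0 to 1, or to 2 with length-adjusted offsets; genes lower went to 1830 by limma on TPM. HNRNPC turned to 0.147 by limma on TPM and IGF2BP1 to 0.452 with length-adjusted offsets. Leaving out 1 library gave 4 to 6 members lower and 0 higher. At 0 h members higher went from 4 to 10 and members lower from 2 to 0 on both the molecule and the ribosomal protein scales, with 1582 and 3520 genes lower, and members lower to 1 with at least 1 CPM in every library; leaving out 1 library gave 0 to 2 members lower. The log2 changes that turned there, on the molecule and then the ribosomal protein scale, were YTHDF1 0.679 and 0.311, YTHDF3 0.799 and 0.379, YTHDC2 0.59 and 0.196, and HNRNPA2B1 0.916 and 0.37. Over all times members higher went from 5 to 9 and lower from 5 to 0 on both scales, genes lower to 3723 on the molecule scale, and genes higher to 4909 with at least 1 CPM in every library, where fewer genes were tested. Those that turned were YTHDF1 0.0944 and 0.0811, YTHDF3 0.124 and 0.0969, YTHDC1 0.245 and 0.224, YTHDC2 0.19 and 0.165, and HNRNPA2B1 0.402 and 0.296, the last also to 0.0357 over the libraries labelled 0, 2 and 8 h. Slopes called 2, 10 and 6 genes by DESeq2 for NC, KO and their difference, and 7868 and 8737 genes with 6 and 6 members on the molecule scale; leaving out 1 library gave 0 to 2, 0 to 1 and 0 to 2 genes. The cause of these shifts was not tested.

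Replicate numbers did not pair the libraries: the correlation across genes between libraries with the same number, after subtracting each group's mean, was -0.11 to 0.0594 at steady state and -0.00666 to 0.0094 under actinomycin D. With the replicate block 5 members were lower at steady state, HNRNPC being lost (adjusted p = 0.0704), and 5 higher and 5 lower over all times. With 2 or 3 libraries per group, the calls for small changes, such as HNRNPC at steady state and HNRNPA2B1 at 0 h, depended on single libraries.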
